A study of Mus musculus with 12 samples.

Results

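The genes described here are 10 heat shock protein and cochaperone genes, taken by name from the 55401 genes listed in each of the study's count tables: Hspa1a, Hspa1b, Hsph1, Dnajb1, Hspb1, Hsp90aa1, Hspa8, Hspd1, Hspe1 and Hsf1. All 10 were found, each on 1 row, and all 10 passed the filter on low counts in both tables. Bulk RNA-seq was made from tumor-associated macrophages (TAMs) of mice that carried subcutaneous B16 melanoma tumors, with 12 libraries in 4 groups of 3. The AMPK-KO group came from AMPKfl/flLyz2cre/cre mice, in which Cre recombinase is driven by the promoter of Lyz2, a gene of myeloid cells, and the WT group came from AMPKfl/fl mice, labelled with the floxed allele and no Cre. Per the study's methods both were sorted at day 15. In the labels, 2 of the 3 AMPK-KO libraries name the Cre allele differently in the genotype field (AMPKfl/flLyz3cre/cre and AMPKfl/flLyz4cre/cre), while their titles name Lyz2. The early-stage group was taken at day 8 and the late-stage group at day 15, both from mice labelled WT and untreated. Age is not given in the labels, only in the study's methods. Whether the 3 samples of a group came from separate mice is not stated, so the p-values measure the spread between these samples, which may be technical.

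Heat shock proteins are molecular chaperones: they bind proteins that are unfolded or being made and help them to fold. The HSP70 proteins do this in a cycle of ATP binding and hydrolysis in which J-domain cochaperones deliver clients and exchange factors release the nucleotide. HSP90 takes over many signaling clients from HSP70, the HSP60 and HSP10 pair folds proteins inside mitochondria, and small heat shock proteins hold unfolded proteins without ATP. HSF1 is the transcription factor of the heat shock response, which binds heat shock elements, runs of alternating GAA and TTC units, near its target genes. The inducible HSP70 genes are also known to respond to tissue digestion and handling.

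The depth of the libraries was even, with 71019494 to 84470374 counts assigned to genes. Early-stage replicate 3 stood apart from its group: it differed from replicates 1 and 2 by a chi-square of 130.8 and 59.5 per gene, against 9.52 to 40.3 for every other pair of replicates, so values of late-stage against early-stage without it are given beside the results that it moves. The macrophage list had counts for all 11 markers in every group and summed to 12231 to 20176 CPM (the usual counts per unit of library size, TMM-scaled). Lyz2, a myeloid gene that is not on that list, was at 9.16 to 13.5 CPM in the 6 AMPK-KO and WT libraries and at 1092 to 3009 CPM in the other 6. Its log2 fold change (log2FC) between AMPK-KO and WT was 0.07 (SE 0.18, adjusted p = 0.830, edgeR). Lyz2 is the gene into which this Cre is inserted. Its level was low in both AMPK-KO and WT libraries, although the latter are labelled as Cre-free, so it does not tell them apart. Late-stage libraries, also labelled WT and of the same tumor day, had 1092 to 1129 CPM under a separate normalization. Why Lyz2 was low in the WT group was not tested, nor was the presence of Cre. Prkaa1, the AMPK catalytic subunit alpha 1, had 40.8 to 47.0 CPM in AMPK-KO and 62.8 to 68.8 CPM in WT, a log2FC of -0.60 (SE 0.07, adjusted p = 2.3e-04 with edgeR), so that 66.0% of its WT level remained. Y-linked genes summed to 41.5 to 48.8 CPM in the early-stage libraries, to at most 0.05 CPM in the late-stage libraries and to 128 to 153 CPM in the AMPK-KO and WT libraries, so the day of collection and the sex makeup of the samples cannot be told apart. The study's methods name female mice for the tumor models, yet Y-linked counts were present in the early-stage, AMPK-KO and WT libraries. The reason was not tested.

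The promoters of the members were read from RefSeq windows on GRCm38.p6, which run from 250 bases before to 50 bases after each transcription start. Of the 10 members, 7 had a window and 3 did not (Hsp90aa1, Hspa8 and Hsf1). Each window was searched on both strands for 2 adjoining units of a heat shock element (GAANNTTC or TTCNNGAA, where N is any base), a motif that 15.1% of all 32851 windows held, and for 3 units in a row, which 0.603% held. The matches of the 2 motifs can overlap, and each is its own reverse complement. A match of 2 units was found in 6 of the 7 members, all but Dnajb1, against 17.0% of all 27025 genes with a window. The 150 bases before the start are printed for 3 members to show the single match of the inducible HSP70 gene, the 2 separate matches of the small heat shock protein gene and the absence of any in Dnajb1. For Hsph1 and Hspe1 only 30 bases around the longest run of units are printed. All are 5' to 3' on the gene's strand, with the matched bases in capitals:

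Hspa1a, chr17:34972157-34972306, minus strand: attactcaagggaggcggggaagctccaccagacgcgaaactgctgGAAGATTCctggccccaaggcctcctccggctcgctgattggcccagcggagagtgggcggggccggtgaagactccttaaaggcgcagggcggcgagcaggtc
Hspb1, chr5:135887769-135887918, plus strand: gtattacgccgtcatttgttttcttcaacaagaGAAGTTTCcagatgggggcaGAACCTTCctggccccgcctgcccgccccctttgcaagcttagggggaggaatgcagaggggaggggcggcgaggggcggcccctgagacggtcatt
Dnajb1, chr8:83608025-83608174, plus strand: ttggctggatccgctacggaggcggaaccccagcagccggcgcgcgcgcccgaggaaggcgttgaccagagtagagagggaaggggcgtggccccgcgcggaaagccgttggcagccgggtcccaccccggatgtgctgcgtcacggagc
Hsph1, chr5:149636287-149636316, minus strand: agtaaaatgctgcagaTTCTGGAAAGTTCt
Hspe1, chr1:55088053-55088082, plus strand: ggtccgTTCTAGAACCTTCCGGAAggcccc

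Counting the first transcribed base as 1, the Hspa1a match began at base -104 and those of Hspb1 at -117 and -97. The printed Hsph1 stretch covers bases 21 to 50, after its start and in its annotated 5' UTR, and that of Hspe1 covers bases -95 to -66, which GENCODE also lists as 5' UTR of Hspd1. The Hspa1b window differed from that of Hspa1a at 4 of its 300 bases, and its match was at the same place. The run in Hspe1 held 4 units in a row, a length found in 8 of all 32851 windows, and it lies in the shared start region of Hspe1 and Hspd1, which are transcribed away from each other. Among members, 3 had a run of at least 3 units (Hsph1, Hspd1 and Hspe1), against 0.662% of all genes with a window. The runs of Hspd1 and Hspe1 are the same bases read on opposite strands, and both windows are among the 8. The absence of these letters from the Dnajb1 windows says nothing of the rest of the gene.

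Per length, Hspa8, the constitutive HSP70 of the cytosol, was the most abundant member in each group, with 497 ± 7.55 CPM per kilobase of exon (mean ± SD, n = 3) in AMPK-KO, 593 ± 8.04 in WT, 630.1 ± 14.2 in early-stage and 590.4 ± 11.2 in late-stage TAMs. Hspa1b and Hspa1a followed in each group, then Hsp90aa1, Hspd1 and Hspe1, and Hsf1 was the lowest with 4.63 to 5.65 CPM per kilobase. The length used joins all listed exons of a gene, 7099 bases for Hsf1 and 7266 for Hsph1, so their low places depend on it. Dnajb1 and Hspb1 changed places between groups, with Hspb1 above Dnajb1 in WT and early-stage and below it in AMPK-KO and late-stage. In that order, neighbours whose libraries overlapped were Hspd1 and Hspe1 in WT, Hspa1b with Hspa1a and Hspa1a with Hsp90aa1 and Hspb1 with Dnajb1 in early-stage, and Hspa8 with Hspa1b and Hspa1b with Hspa1a in late-stage TAMs. The 10 members together took 0.569% of the counts in AMPK-KO, 0.705% in WT, 0.607% in early-stage and 0.691% in late-stage TAMs. Levels are not compared by test between the tables, which were normalized separately.

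**Figure D1:**
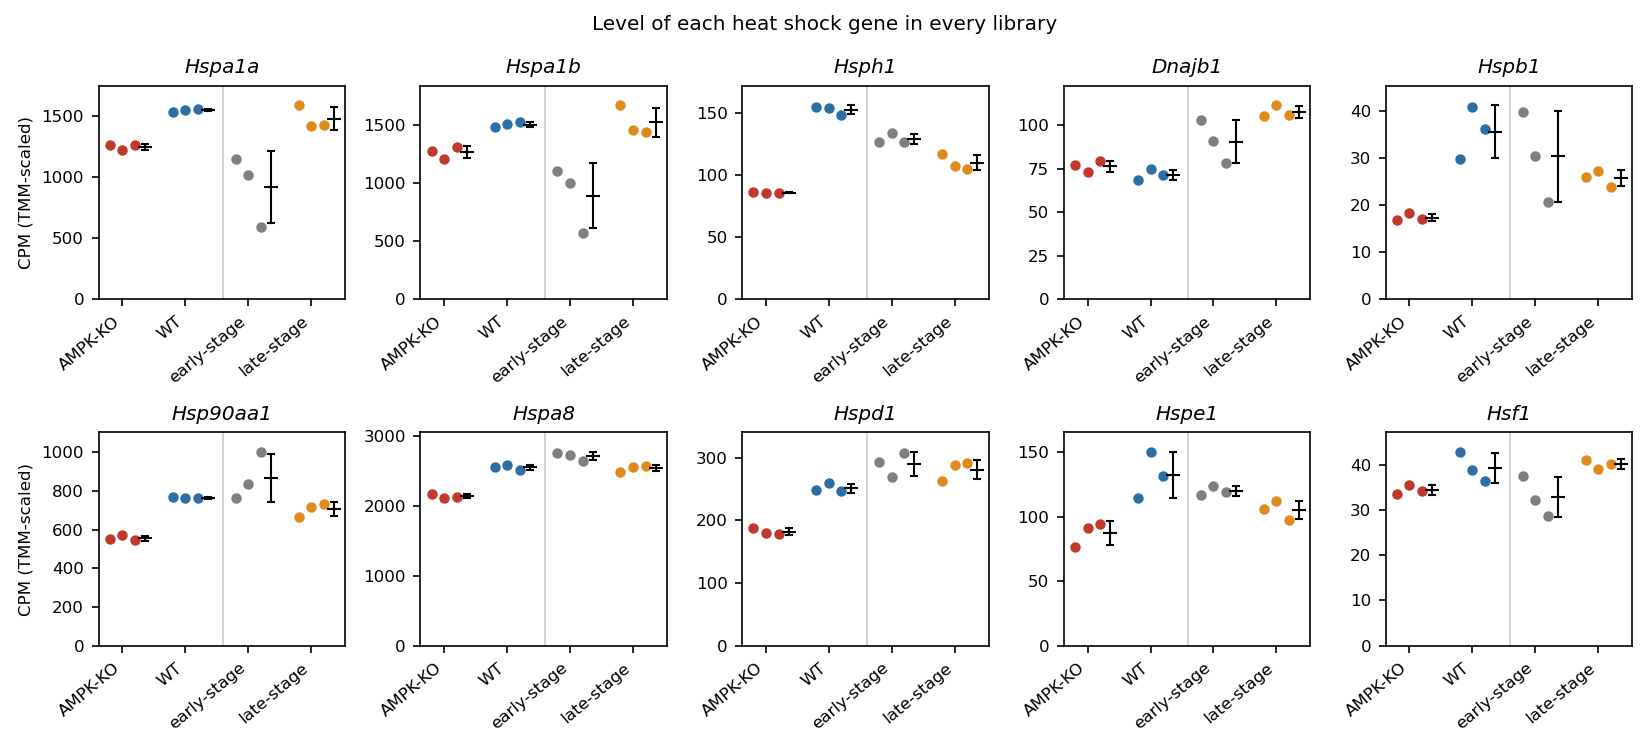
TMM-scaled CPM of the 10 genes in each of the 12 libraries, with a y axis from 0 in every panel. Points are libraries in the order of replicates 1 to 3, the bar beside them is the mean ± SD (n = 3), and the grey line separates the tables, which were normalized separately. The 3 AMPK-KO libraries sit below the 3 WT libraries in every panel but that of Dnajb1, and the early-stage points of Hspa1a and Hspa1b spread from 587 to 1143 CPM and from 573 to 1101 CPM.

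The first comparison asks how TAMs of mice with a myeloid deletion of AMPK, a kinase that senses energy shortage, differ from WT TAMs of the same tumor day. The deletion is given by the labels, and Prkaa1 transcript remained in these libraries as stated above. Of the 10 members, 8 were lower in AMPK-KO TAMs and none was higher. Of all 17532 genes tested, 21.1% passed the same threshold (adjusted p under 0.05): 9.78% of all genes tested were lower and 11.3% higher. The fold changes of the 8 lay between 0.49 times the WT level in Hspb1 and 0.84 times in Hspa1b and Hspa8. The groups did not overlap in 9 of the 10 members, against 37.2% of all genes tested. In bulk samples, fewer cells of a type and less RNA per cell cannot be told apart.

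The inducible HSP70 proteins are encoded by 2 neighbouring genes without introns, Hspa1a (ENSMUSG00000091971.3, chr17:34969190-34972156, minus strand, GRCm38) and Hspa1b (ENSMUSG00000090877.3, chr17:34956436-34959238, minus strand). Hspa1a had 1259, 1216 and 1260.0 CPM in AMPK-KO replicates 1 to 3, and 1534, 1550.0 and 1556 CPM in WT replicates 1 to 3. All AMPK-KO libraries were below all WT libraries, and the log2FC was -0.31 (SE 0.04, adjusted p = 1.6e-04, edgeR). Hspa1b had 1271, 1207 and 1312 CPM in AMPK-KO and 1476, 1506 and 1520 CPM in WT. It too was lower without overlap, with a log2FC of -0.25 (SE 0.04, adjusted p = 1.8e-03, edgeR). The 2 coding sequences differ at 11 of 1926 aligned positions and share an identical run of 638 bases, so reads could be split between them in ways the sources do not state. The ratio of Hspa1a to Hspa1b counts lay between 0.952 and 1.04 in all 12 libraries. With their counts summed, the log2FC was -0.28. Hspa1a also overlaps Gm20481 on the other strand, which had 14 to 107 counts per library in this table.

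Hsph1 (ENSMUSG00000029657.15, chr5:149614287-149636376, minus strand) encodes HSP110, an exchange factor that releases ADP from HSP70. Its libraries had 86.2, 85.4 and 85.2 CPM in AMPK-KO and 155, 153.9 and 148 CPM in WT. No other member had so small a spread within AMPK-KO, with an SD of 0.519 CPM around a mean of 85.6. The log2FC was -0.83 (SE 0.05), that is 0.56 times the WT level, with an adjusted p of 1.4e-06 by edgeR. Dnajb1 (ENSMUSG00000005483.10, chr8:83608193-83612653, plus strand) encodes HSP40, a J-domain protein that hands clients to HSP70. It had 76.8, 73.1 and 79.1 CPM in AMPK-KO and 68.6, 74.5 and 71.3 CPM in WT. Those values overlap, and Dnajb1 was the only member above WT on average, with a log2FC of 0.10 (SE 0.06, adjusted p = 0.293, edgeR).

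Relative to the inducible HSP70 pair, Dnajb1 had a higher ratio and Hsph1 a lower ratio in every AMPK-KO library than in any WT library. Dnajb1 amounted to 3.02 to 3.08 CPM per 100 CPM of Hspa1a and Hspa1b in the AMPK-KO libraries and to 2.28 to 2.44 in the WT libraries. Hsph1 amounted to 3.31 to 3.52 in AMPK-KO and to 4.82 to 5.15 in WT. Neither ratio overlapped between the groups, and the two-sided exact permutation test gave p = 0.1 for each, the smallest value that 3 samples against 3 can reach. Both ratios also carry the lower level of the pair itself in AMPK-KO. The ratio of the inducible pair to Hspa8 was 1.15 to 1.21 in AMPK-KO and 1.18 to 1.22 in WT, overlapping ranges with an exact permutation p of 0.4.

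Hspa8 (ENSMUSG00000015656.17, chr9:40800984-40810087, plus strand) also carries clients in chaperone-mediated autophagy, and small nucleolar RNA genes lie within it. It had 2174, 2109 and 2133 CPM in AMPK-KO and 2558, 2582 and 2513 CPM in WT. The groups did not overlap, with a log2FC of -0.25 (SE 0.03, adjusted p = 4.3e-04, edgeR). Hsp90aa1 (ENSMUSG00000021270.13, chr12:110690605-110702728, minus strand) encodes the inducible HSP90 of the cytosol. Its values were 549, 571 and 546 CPM in AMPK-KO and 770.4, 761 and 762 CPM in WT. That is 0.73 times the WT level and a log2FC of -0.46 (SE 0.04, adjusted p = 2.2e-05, edgeR).

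Hspb1 (ENSMUSG00000004951.10, chr5:135887919-135889563, plus strand) encodes the small heat shock protein HSP25, which also binds actin filaments. With 16.8, 18.2 and 16.9 CPM in AMPK-KO and 29.7, 40.8 and 36.1 CPM in WT, it had the largest log2FC in size among the members. Its log2FC of -1.04 (SE 0.11, adjusted p = 1.0e-04, edgeR) made it the only member of 10 past both the adjusted p and an absolute log2FC above 1, a pair of thresholds that 3.34% of all genes tested passed. Without WT replicate 2 its log2FC was -0.92, short of the second threshold. A listed pseudogene, Hsp25-ps1, had 64 to 464 counts per library in the same table, so some reads may be shared.

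Hspd1 (ENSMUSG00000025980.14, chr1:55077835-55088243, minus strand) and Hspe1 (ENSMUSG00000073676.4, chr1:55088132-55091307, plus strand) encode HSP60 and HSP10, which form the folding chamber of mitochondria, and stand head to head around a shared start region. Hspd1 had 189, 179 and 178 CPM in AMPK-KO and 248, 259.7 and 247 CPM in WT, a log2FC of -0.47 (SE 0.05, adjusted p = 6.9e-05, edgeR). Hspe1 had 76.4, 91.5 and 94.0 CPM in AMPK-KO and 115, 150.3 and 132 CPM in WT, a log2FC of -0.60 (SE 0.10, adjusted p = 2.2e-03, edgeR). Both were lower without overlap, and Hspe1 varied more within each group. The ends of the 2 genes overlap, and strand handling in the counting is not stated, so reads from that stretch cannot be told apart. A related locus of Hspd1, Hspd1-ps3, had 236 to 497 counts per library.

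Hsf1 (ENSMUSG00000022556.11, chr15:76477422-76501913, plus strand), the regulator of the response, had 33.5, 35.6 and 34.2 CPM in AMPK-KO and 42.8, 38.8 and 36.4 CPM in WT. The groups did not overlap, but the log2FC of -0.19 (SE 0.07) did not pass the threshold (adjusted p = 0.102, edgeR). A transcript level does not measure HSF1 activity, which is set mainly on the protein.

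**Figure D2:**
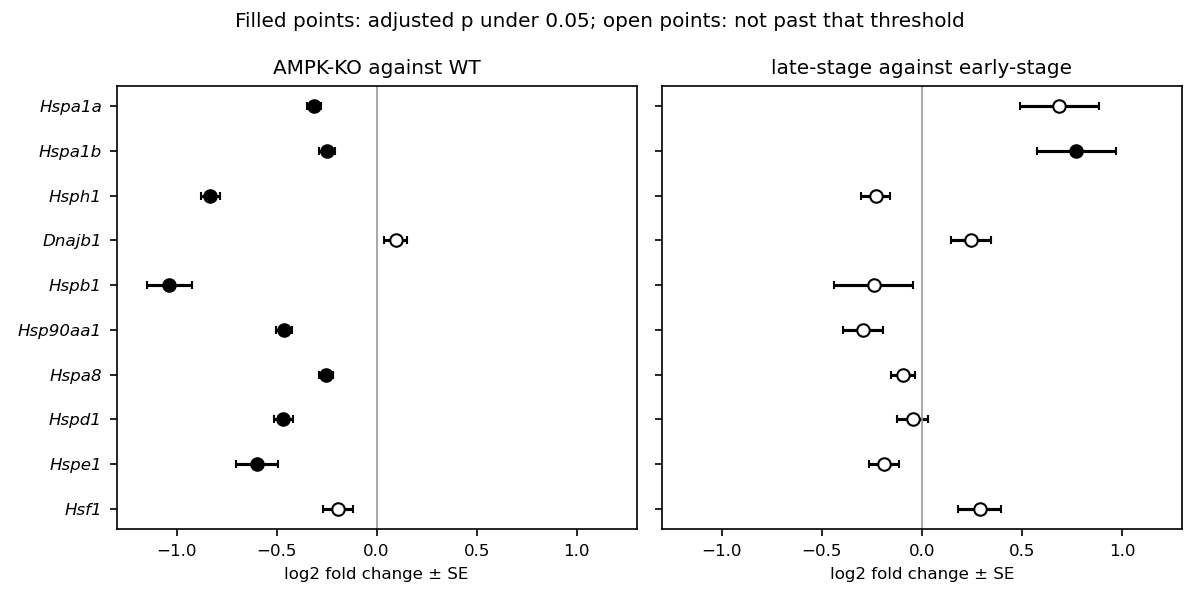
Log2FC ± SE of the 10 genes in AMPK-KO against WT (left) and late-stage against early-stage (right), from the edgeR fits of 3 libraries against 3. Filled points passed an adjusted p of 0.05: 8 on the left, all below 0, and on the right only Hspa1b, at 0.77.

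The wider chaperone system was described with lists of known families, 115 genes in all with the members, of which 111 were tested. In AMPK-KO TAMs, 57 of the 111 were lower and none was higher, a share of 51.4% against 21.1% of all genes tested in either direction. Leaving out the 10 members, 49 of 101 were lower and none was higher, with a median log2FC of -0.22 against -0.0037 over all genes. The lists overlap in genes, and each count below is over all members tested.

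Endoplasmic reticulum chaperones had the highest share, with 15 of 16 lower and a median log2FC of -0.48. Hspa5, the HSP70 of the endoplasmic reticulum, had 1010.2 ± 10.5 CPM in AMPK-KO and 1516 ± 25.1 CPM in WT (mean ± SD, n = 3), a log2FC of -0.59. Pdia4, a disulfide isomerase, fell by 0.70 and Creld2, a secreted stress protein, fell by 0.77 on the log2 scale. Among HSP90 and its cochaperones, 10 of 17 were lower. Fkbp4, a cochaperone of steroid receptors, had 91.9 ± 1.61 CPM against 156 ± 6.22 CPM in WT, a log2FC of -0.76. Hsp90ab1, the constitutive HSP90, had a log2FC of -0.32, and Stip1, which bridges HSP70 and HSP90, one of -0.52.

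In the HSP70 family 8 of 15 were lower, among them Hyou1 of the endoplasmic reticulum (-0.53) and Hspa9 of mitochondria (-0.28). Of the J-domain cochaperones 6 of 20 were lower, with Dnaja1 at -0.40, Dnajb11 at -0.34 and Dnajb4 at -0.54, and the other 14, Dnajb1 included, did not pass. Of the exchange factors and cofactors of HSP70 6 of 12 were lower, led by St13 (-0.38), Hspbp1 (-0.41) and Sil1 (-0.33), but only 2 without AMPK-KO replicate 2 or without WT replicate 3. The list of inducible HSP70 and its partners had 5 of 8 lower, among them the members Hspa1a, Hspa1b and Hsph1. Bag3, an HSF1 target on that list that links HSP70 to small heat shock proteins, was at -0.23. The mitochondrial list had 7 of 12 lower, including Clpb (-0.31) and Lonp1 (-0.19), and the cytosolic chaperonin list 8 of 14, including Cct7 (-0.28), Cct8 (-0.22) and Tcp1 (-0.21). Both counts were lower when AMPK-KO replicate 1 or 2 or WT replicate 2 or 3 was left out, at 3 or 4 for the mitochondrial list and 4 or 5 for the chaperonin list. Small heat shock proteins had 3 of the 8 tested lower, with Cryab at -0.53 and Hspb8 at -0.98 beside Hspb1, although Hspb8 had only 1.19 ± 0.19 CPM in AMPK-KO and 2.36 ± 0.33 CPM in WT. Of the heat shock factors and regulators 2 of 5 tested were lower, Hsf4 (-0.64) and Hsbp1 (-0.24), and Hsf2 was not past the threshold at -0.06. Neither of the 2 passed with no filter beyond 1 count, or without AMPK-KO replicate 1 or 2 or WT replicate 2 or 3, and 1 passed without WT replicate 1.

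A list of known HSF1 target genes, which shares the 9 members other than Hsf1, had 21 of 24 lower and a median log2FC of -0.40. The 3 that did not pass were Dnajb1, Hspa4l and Ubb, and no gene of the list was higher. When genes were taken by sequence instead, of the 71 tested genes with 3 or more heat shock element units in a window, 12 were lower and 6 higher, a share of 25.4% against 23.6% of the 11739 tested genes with a window. The lower genes alone made up 16.9% against 10.9%, and 13.2% with the 3 members left out that are among them.

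**Figure D3:**
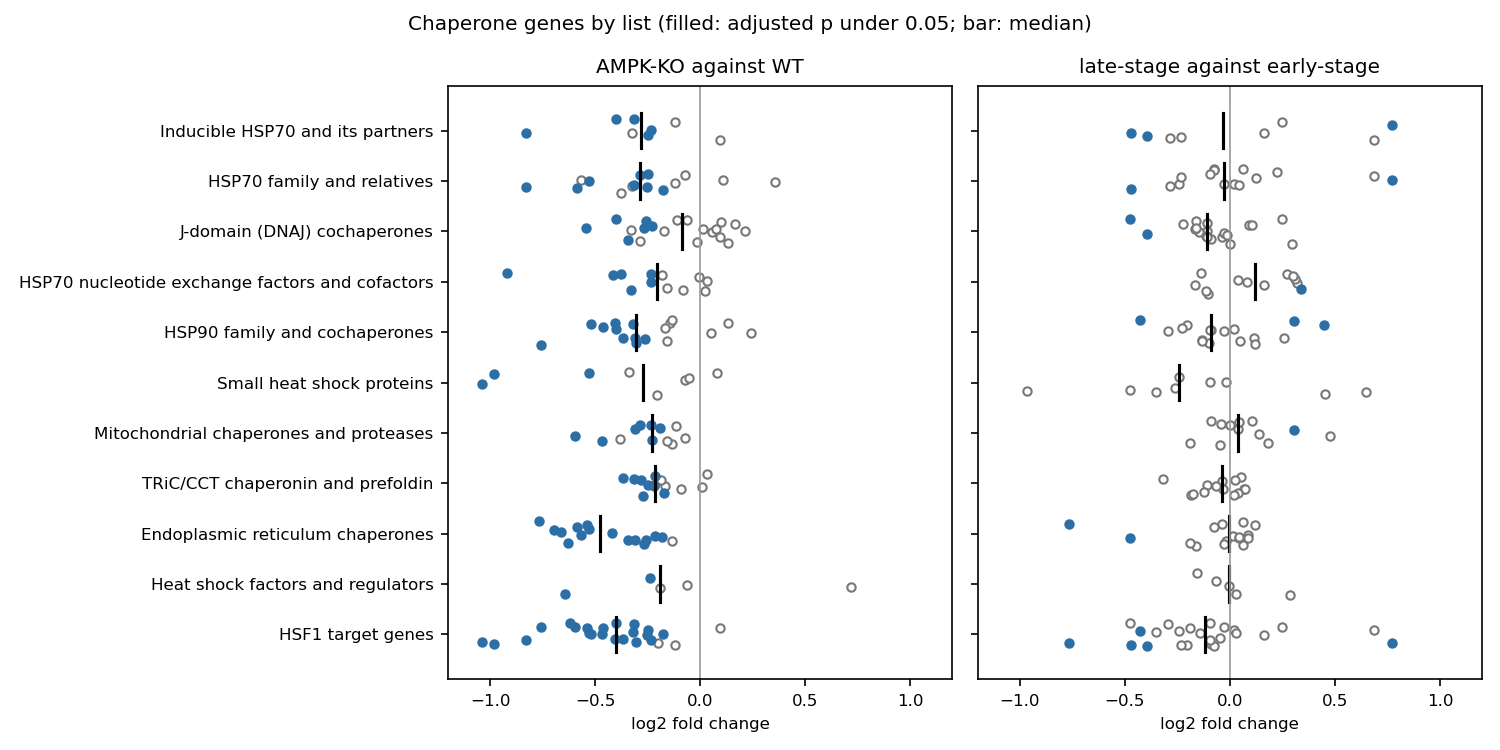
Log2FCs of the tested genes of 11 chaperone lists in AMPK-KO against WT (left) and late-stage against early-stage (right). Each point is a gene, filled where its adjusted p was under 0.05, vertical bars are list medians and the vertical spread within a list carries no value. On the left every filled point lies below 0, and 15 of 16 endoplasmic reticulum chaperones are filled, whereas on the right few points are filled and they lie on both sides.

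Other gene groups moved in the same comparison, and their part in these results was not tested. All 16 cell cycle genes had a negative log2FC and 13 passed, summing to 1582 to 1638 CPM in AMPK-KO and to 1898 to 1937 CPM in WT. B16 melanoma markers, genes of the pigment cell lineage, had 6 of 7 lower and summed to 676 to 716 CPM in AMPK-KO and to 998 to 999 CPM in WT. None of these markers was at 0 in either group. T and NK cell markers had 9 of 10 higher, with sums of 209 to 219 CPM against 101 to 119 CPM. Of 5 B cell markers 4 were lower and Cd79b was higher, with Pax5 at 0.03 CPM in AMPK-KO and at 3.14 CPM in WT. Dendritic cell markers had 6 of 7 higher (125 to 132 against 80.7 to 91.1 CPM) and fibroblast and endothelial markers 6 higher and 1 lower of 8 (861 to 943 against 628 to 676 CPM). Neutrophil markers summed to 4.36 to 5.76 against 1.35 to 2.22 CPM. Macrophage markers had 2 higher and 3 lower of 11, with sums of 16631 to 17270 against 18074 to 20176 CPM. Immediate early genes, which respond quickly to stimulation and handling of cells, had 4 higher and 6 lower of 20 and summed to 7216 to 7370 against 7642 to 7777 CPM.

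The second comparison asks how TAMs of late tumors differ from those of early tumors in WT mice. Here 1 of the 10 members passed the threshold: Hspa1b was higher in late-stage TAMs. Over all 17630 genes tested, 9.18% passed, 4.31% being higher and 4.88% lower, so 1 of 10 is close to the background. None of the 10 passed the adjusted p together with an absolute log2FC above 1, as 1.87% of all genes did. The groups did not overlap in 8 of the 10 members, against 31.2% of all genes tested.

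Among the members, the inducible HSP70 genes had the largest log2FC between stages. Hspa1a had 1143, 1019.5 and 587 CPM in early-stage replicates 1 to 3 and 1585, 1420 and 1422 CPM in late-stage replicates 1 to 3. Hspa1b had 1101, 995 and 573 CPM in the early-stage and 1665, 1457 and 1434 CPM in the late-stage libraries. For both genes every late-stage library was above every early-stage library, and early-stage replicate 3 was far below its group. The log2FC of Hspa1b was 0.77 (SE 0.20, adjusted p = 0.0392, edgeR) and that of Hspa1a was 0.69 (SE 0.20, adjusted p = 0.0599). Without early-stage replicate 3 the difference was smaller and had a lower adjusted p, with log2FC values of 0.53 (adjusted p = 2.8e-03, edgeR) for Hspa1b and 0.45 (adjusted p = 4.9e-03) for Hspa1a. When their counts were summed, the pair had a log2FC of 0.73 (adjusted p = 0.0479, edgeR). The call of Hspa1b was lost without early-stage replicate 2 (adjusted p = 0.0974) or without any 1 of the late-stage libraries (0.102 to 0.149).

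Relative to Hspa8, the inducible pair was at 0.813, 0.738 and 0.439 in the early-stage libraries and at 1.31, 1.12 and 1.11 in the late-stage libraries. The ranges did not overlap, with the smallest exact permutation p that the design allows (0.1). Hspa8 itself had 2759, 2729 and 2642 CPM in early-stage and 2485, 2557 and 2576 CPM in late-stage TAMs, a log2FC of -0.09 (SE 0.06, adjusted p = 0.374, edgeR).

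Of the cochaperones among the members, neither Hsph1 nor Dnajb1 passed. Hsph1 had 126, 133.5 and 127 CPM in early-stage and 117, 108 and 105 CPM in late-stage TAMs, without overlap, and a log2FC of -0.23 (SE 0.07, adjusted p = 0.0793, edgeR). Dnajb1 had 103, 90.5 and 78.3 CPM in early-stage and 105, 111 and 106 CPM in late-stage TAMs, with a log2FC of 0.25 (SE 0.10, adjusted p = 0.156, edgeR) that was 0.15 (adjusted p = 0.272) without early-stage replicate 3. Per 100 CPM of the inducible pair, Hsph1 was at 5.63 to 10.9 in early-stage and 3.59 to 3.74 in late-stage, and Dnajb1 at 4.49 to 6.76 and 3.23 to 3.87, each without overlap and with an exact permutation p of 0.1. Both ratios carry the higher late-stage level of the pair itself, so they are not separate results on the cochaperones.

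**Figure D4:**
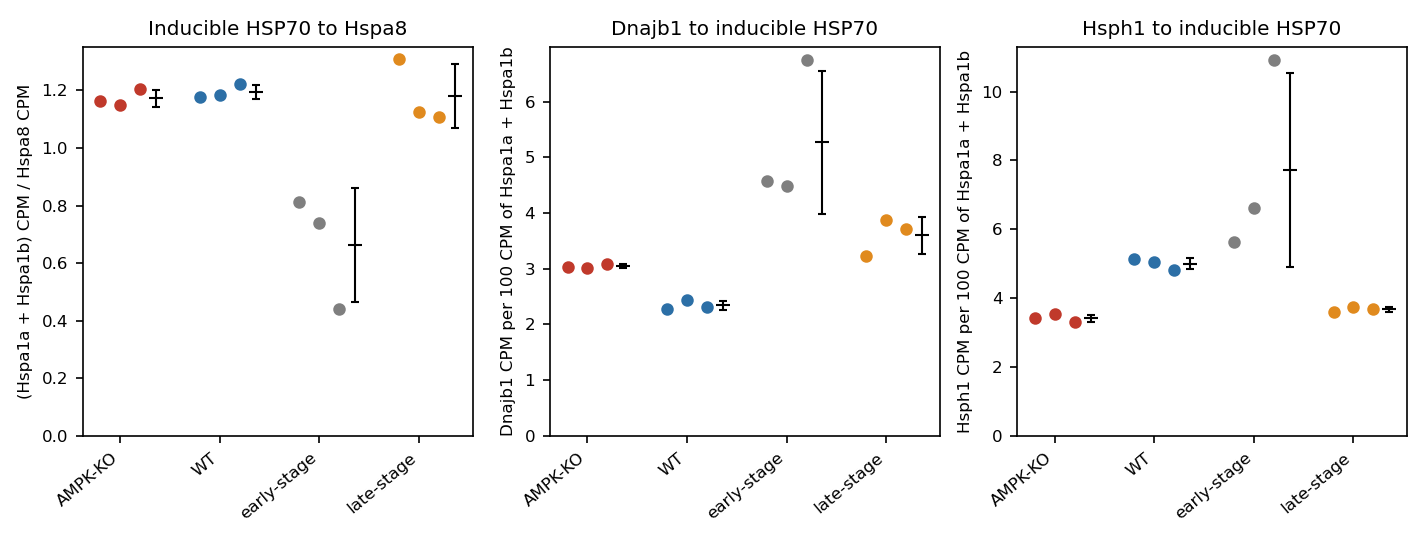
Ratio of Hspa1a plus Hspa1b to Hspa8 (left), and Dnajb1 (middle) and Hsph1 (right) per 100 CPM of Hspa1a plus Hspa1b, in each of the 12 libraries, with y axes from 0 and bars for the mean ± SD (n = 3). The inducible pair sits at 1.11 to 1.31 times Hspa8 in AMPK-KO, WT and late-stage libraries and at 0.439 to 0.813 in the early-stage libraries.

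Hsp90aa1 had 761, 834 and 1001 CPM in early-stage and 664, 716 and 733 CPM in late-stage TAMs, the opposite order to that of inducible HSP70, and its log2FC of -0.30 (SE 0.10) did not pass (adjusted p = 0.0997, edgeR). Without early-stage replicate 3 it was -0.18 (adjusted p = 0.144). Hspb1 had 39.8, 30.5 and 20.6 CPM in early-stage and 25.9, 27.2 and 23.9 CPM in late-stage TAMs. Its early-stage range encloses the late-stage values, and its log2FC of -0.24 (SE 0.20, adjusted p = 0.504, edgeR) became 0.0083 without early-stage replicate 1 and -0.46 (adjusted p = 0.0466) without replicate 3. For Hspd1 the values were 294, 269.8 and 307 CPM in early-stage and 263, 288 and 292 CPM in late-stage TAMs, overlapping groups with a log2FC of -0.05 (SE 0.08, adjusted p = 0.760, edgeR). Hspe1 was at 117, 124 and 119 CPM in early-stage and at 106, 112 and 97.7 CPM in late-stage TAMs, with a log2FC of -0.19 (SE 0.08, adjusted p = 0.153, edgeR). Hsf1 was at 37.6, 32.3 and 28.7 CPM in early-stage and at 41.1, 39.0 and 40.2 CPM in late-stage TAMs. Every late-stage library was above every early-stage library, but the log2FC of 0.29 (SE 0.11) had an adjusted p of 0.130 by edgeR, and it was 0.20 (adjusted p = 0.233) without early-stage replicate 3. Without that library Hsph1, Hspa8, Hspd1 and Hspe1 did not pass either, with adjusted p values of 0.0639 to 0.978 (edgeR).

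The number of members past the threshold turned on single early-stage libraries. It was 6 without replicate 1 (Hspa1a, Hspa1b, Dnajb1 and Hsf1 higher, Hsph1 and Hsp90aa1 lower), 0 without replicate 2 and 3 without replicate 3 (Hspa1a and Hspa1b higher, Hspb1 lower), and it was 0 without any 1 late-stage library.

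Of the 112 chaperone genes tested in this comparison 4 were higher and 5 lower, a share of 8.04% against 9.18% of all genes, and their median log2FC was -0.03. Dnaja1, a J-domain partner of HSP70, had 188 ± 5.57 CPM in late-stage and 247 ± 13.3 CPM in early-stage TAMs, a log2FC of -0.40 (SE 0.07, adjusted p = 7.5e-03, edgeR). The others that were lower were Hspa4l, a relative of HSP110 (-0.47), Dnajb9 of the endoplasmic reticulum (-0.47), Chordc1, an HSP90 cochaperone (-0.43), and Serpinh1, the collagen chaperone (-0.76). Beside Hspa1b, the higher genes were Fkbp5 (0.45), a cochaperone that glucocorticoids induce, Bag6 (0.34) and the mitochondrial HSP90 Trap1 (0.31). By list, 1 of 24 HSF1 target genes was higher and 4 were lower, 2 of 16 endoplasmic reticulum chaperones were lower, and of the chaperonin, small heat shock protein and heat shock factor lists none passed by edgeR or DESeq2, with 1 gene of each at an unadjusted p under 0.05. Leaving out 1 library gave 0 to 9 HSF1 target genes and 0 to 3 endoplasmic reticulum chaperones, and the count over all chaperone lists was 23 without early-stage replicate 1, 1 without replicate 2, 10 without replicate 3 and 2 or 3 without a late-stage library.

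Several gene groups moved with stage, and their part in these results was not tested. All 16 cell cycle genes were higher in late-stage TAMs (2367 to 2475 against 1740 to 1845 CPM in sum). B16 melanoma markers had 5 of 7 lower and summed to 767 to 1203 CPM in late-stage and to 1663 to 1807 CPM in early-stage TAMs, with none at 0. Fibroblast and endothelial markers had 4 of 8 lower (471 to 634 against 892 to 963 CPM), T and NK cell markers had 2 higher and 3 lower of 10, and B cell markers 3 of 5 higher (57.5 to 82.9 against 37.3 to 41.8 CPM). Dendritic cell markers had 1 higher and 1 lower of 7 and macrophage markers 1 higher and 1 lower of 11, and the 2 neutrophil markers tested were both lower, with list sums of 0.274 to 0.712 against 2.63 to 3.72 CPM. Immediate early genes had 1 of 20 higher, and their sums of 8644, 7845 and 5905 CPM in early-stage replicates 1 to 3 had the same order as the inducible HSP70 genes, beside 7342 to 7924 CPM in late-stage TAMs.

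Within groups, the inducible pair and Hsp90aa1 varied in opposite directions. Over the 12 libraries, the deviations of Hsp90aa1 from its group means correlated with those of the summed pair at a Pearson r of -0.97, and at -0.99 without early-stage replicate 3, a library that held 62.0% of the pair's squared deviation. Among the other members r was highest for Hspb1 and Dnajb1 (0.83 each), which ranked only 743 and 750 among 16810 genes. Their r fell to 0.38 and 0.41 without that library. The 5 genes most like the pair, of 16810, were Rgs14 (0.99), Hes6 (0.98), Ppp1r15a (0.98), Tbc1d17 (0.98) and Ano8 (0.98). Ppp1r15a encodes a phosphatase subunit of the stress response. Without early-stage replicate 3 their r was 0.75 to 0.90. These are descriptions over 12 libraries, 6 from each table, and carry no test.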

How the data were processed

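RNA-seq counts of 12 libraries were used, in 1 table per comparison. According to the submitters' processing notes and the study's methods, the authors mapped reads with HISAT2 and deposited raw counts per gene from featureCounts, and their fold changes came from DESeq2. Versions, strand setting and handling of shared reads are not given in the sources used here. The notes name mm10 and GRCm38, the methods GRCh38. Of 55401 identifiers, 54349 match GENCODE M21 (GRCm38) with their version, from which positions and exon lengths were taken. No column was left unused. Genes were filtered with filterByExpr, scaled by TMM and compared within each table by edgeR 4.0.16 in R 4.3.3 (quasi-likelihood, no covariates). P-values were adjusted by Benjamini-Hochberg over all genes tested, and SE was taken as the absolute log2 fold change over the square root of F. The script was tested on simulated data. Alternatives were other scaling factors, DESeq2 1.42.0, other filters, a replicate block, summed Hspa1a and Hspa1b, and each library left out. The members and lists were chosen with earlier results of these data known. Besides the members, the genes named are up to 3 of each chaperone list with the smallest adjusted p and those against their list's direction, and the 5 most correlated with the inducible pair. Hsf2, Ubb, Prkaa1, Lyz2 and Pax5 were added with their values seen. Promoters are from RefSeq.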

Additional observations from a re-analysis of the deposited data

How the results depend on the processing

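In AMPK-KO against WT, 8 members stayed past the threshold under every scaling, filter, DESeq2, block and left-out library, and the count over the chaperone lists ran from 41 to 62. Under the study's own thresholds (DESeq2, unadjusted p, absolute log2FC above 1) 1 member remained there and 0 in late-stage against early-stage. For stage, the count of members was 0 with no filter beyond 1 count, and 2 with at least 10 counts in every library, with DESeq2 or with a replicate block. Correlations between same-numbered samples were all under 0.1. That gives no sign of pairing by number, but low values over all genes cannot exclude it. Apart from Hspa1a in the stage comparison, the block changed no member's call. The chaperone count was 4 without the filter. Hspa1a passed at 0.69 with at least 10 counts, at 0.74 with the replicate block and at 0.73 summed with Hspa1b, Hsp90aa1 passed at -0.30 with DESeq2, and Hspa1b did not pass at 0.77 without the filter. Leaving out 1 library gave 0 to 6 members and 1 to 23 chaperone genes, and log2FC of 0.45 to 0.88 for Hspa1a, 0.53 to 0.96 for Hspa1b, -0.28 to -0.20 for Hsph1, 0.15 to 0.35 for Dnajb1, -0.46 to 0.0083 for Hspb1, -0.38 to -0.18 for Hsp90aa1 and 0.20 to 0.40 for Hsf1. The cause was not tested. Low genes such as Hspb8 (1.19 CPM in AMPK-KO) rest on few counts.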
